A study of Mus musculus with 12 samples.

Results

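The genes described here encode structural proteins that surround the axoneme of the mouse sperm tail. They were 10 genes of the 20718 in the table of testis mRNA, taken by their symbols: Odf1, Odf2, Odf3 and Odf4 of the outer dense fibre, Akap3, Akap4, Fscb and Ropn1 of the fibrous sheath, and Smcp and Gpx4 of the mitochondrial capsule. All 10 were in the table and all 10 passed the filter on low counts, and so did 16296 genes in all.

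Testis RNA was sequenced from 4 groups of male mice of the injected generation, with 3 libraries in each group. All mice were ICR males per the methods (the labels give the strain as "IRC mouse"), and all testes had received lentivirus by microinjection at 4 weeks of age. In F0_5251KD the virus carried 3 shRNAs against lncRNA5251, a long noncoding RNA, in the LV3 vector. The study's main text and detailed methods differ on the number of positions they target. F0_3NC received the negative control of the LV3 vector. In F0_5251OV the virus carried full-length lncRNA5251 in the LV5 vector, and F0_5NC received LV5 without it. The males were raised for 5 weeks after injection and then mated. Whether each library was a different mouse is not stated, so p-values measure the spread between libraries, which may be technical. Which cells took up virus, and the level of lncRNA5251 itself, were not analysed here.

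These structures are built late in spermatogenesis, in elongating spermatids. The outer dense fibres run along the microtubules of the midpiece and principal piece and stiffen the tail, the fibrous sheath encloses the principal piece and holds signalling and glycolytic enzymes, and the mitochondrial sheath winds around the midpiece. Their mRNAs are made in spermatids and many are stored before translation, so an mRNA level in testis is not a level of the protein in sperm. The study measured sperm motility in these mice and ODF1 protein in their offspring, and the comparisons below ask whether the testis mRNAs of the tail genes differed between the groups.

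The promoters of the 4 fibrous sheath genes are shown because 3 of them share a run of letters. RefSeq (GRCm38.p6) gave a promoter for 9 of the 10 genes, all but Odf1. Each line gives the 100 bases before the first start listed for the gene, 5′ to 3′ on its strand, with TGATGTCA in capitals. For Ropn1 that start lies inside the range of the gene given below, so the bases before the range are not shown.
Akap3 (chr6:126852998-126853097, + strand): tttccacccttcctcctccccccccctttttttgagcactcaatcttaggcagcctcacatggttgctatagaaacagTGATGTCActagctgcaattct
Akap4 (chrX:7067415-7067514, + strand): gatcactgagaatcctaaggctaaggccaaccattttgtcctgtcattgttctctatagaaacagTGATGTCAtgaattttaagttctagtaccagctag
Fscb (chr12:64474899-64474998, - strand): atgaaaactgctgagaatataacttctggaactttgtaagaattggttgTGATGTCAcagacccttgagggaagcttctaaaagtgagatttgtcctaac
Ropn1 (chr16:34651111-34651210, + strand): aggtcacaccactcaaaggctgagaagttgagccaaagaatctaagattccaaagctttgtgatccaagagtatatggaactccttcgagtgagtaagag

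The letters TGATGTCA, read on either strand in the 250 bases before the start, were in 3 of the 9 promoters, those of Akap3, Akap4 and Fscb, and in 2.9% of 32851 RefSeq promoters. They began 22 bases before the start of Akap3, 35 before that of Akap4 and 51 before that of Fscb. In Akap3 and Akap4 they ended a run of 20 shared bases, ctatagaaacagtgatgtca, which among the 32851 promoters was found in these 2 only. Over the 36 pairs of the 9 promoters the longest shared run had a median of 9 bases and was at most 11 in every other pair. These letters were looked for after the sequences had been read, so the counts are a description and not a test. The 9 promoters take the first listed start of each gene, while the 32851 hold every listed start. For Ropn1 and Odf2 the first listed start lies inside the range of the gene, and the bases before the range were not searched. Of 3 other motifs, also read on both strands, TGACG was in the promoter of Odf2 alone (17.8% of all promoters), CCAAT was in 4 of 9 (33.8%) and TATAAA was in 0 of 9 (12.4%). The run TGATGTCA does not contain any of these 3. A match of letters does not show that a factor binds there.

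The tail genes were among the most abundant mRNAs of the testis. Levels are given as RPKM, reads scaled to transcript length and library total, which can be compared between genes. By its mean RPKM over the 12 libraries, Smcp, a cysteine-rich protein of the mitochondrial capsule, ranked 8 of 20718 genes (2611 ± 133 RPKM, SD, n = 12). Odf2, a fibre protein that is also a component of centrosomes, ranked 14 (1838 ± 75.1) and Odf1, a major cysteine-rich protein of the fibres, ranked 17 (1427 ± 138). Gpx4, a selenoprotein peroxidase that becomes a cross-linked structural protein of the capsule, ranked 28 (1202 ± 124). Its mitochondrial, nuclear and cytosolic forms come from the same gene and were counted together.

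Among the fibrous sheath genes the level fell over a wide range. Akap4, a major protein of the sheath and an anchor of protein kinase A, stood at 839 ± 65.2 RPKM (rank 49). Ropn1, which encodes ropporin, a partner of the anchoring proteins, stood at 399.9 ± 15.1 (rank 178), and Akap3, a second anchor, at 349 ± 16.3 (rank 236). Odf4 stood at 212 ± 12.4 RPKM (rank 482), Fscb, a sheath protein that binds CABYR, at 127 ± 12.4 (rank 911) and Odf3 at 119 ± 13.8 (rank 983).

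The order of the levels was nearly the same in every library. Of the 9 neighbouring pairs in the order, 7 kept it in 12 of 12 libraries. Gpx4 exceeded Akap4 in 11 of 12 libraries, the exception being F0_3NC replicate 2. Fscb exceeded Odf3 in 6 of 12, with a median ratio of 1.0, so these 2 cannot be ranked. Together the 10 genes took 1.17% to 1.36% of the counts of a library.

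The 10 genes lie apart in the genome (GRCm38). Odf1 is at chr15:38219203-38226735, Odf2 at chr2:29889014-29931746, Odf3 at chr7:140847916-140850925 and Odf4 at chr11:68921835-68927081. Akap3 is at chr6:126853098-126874308, Akap4 at chrX:7067515-7078609, Fscb at chr12:64471333-64474898 and Ropn1 at chr16:34649832-34678610. Smcp is at chr3:92583866-92589073 and Gpx4 at chr10:80047166-80056439.

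**Figure D1:**
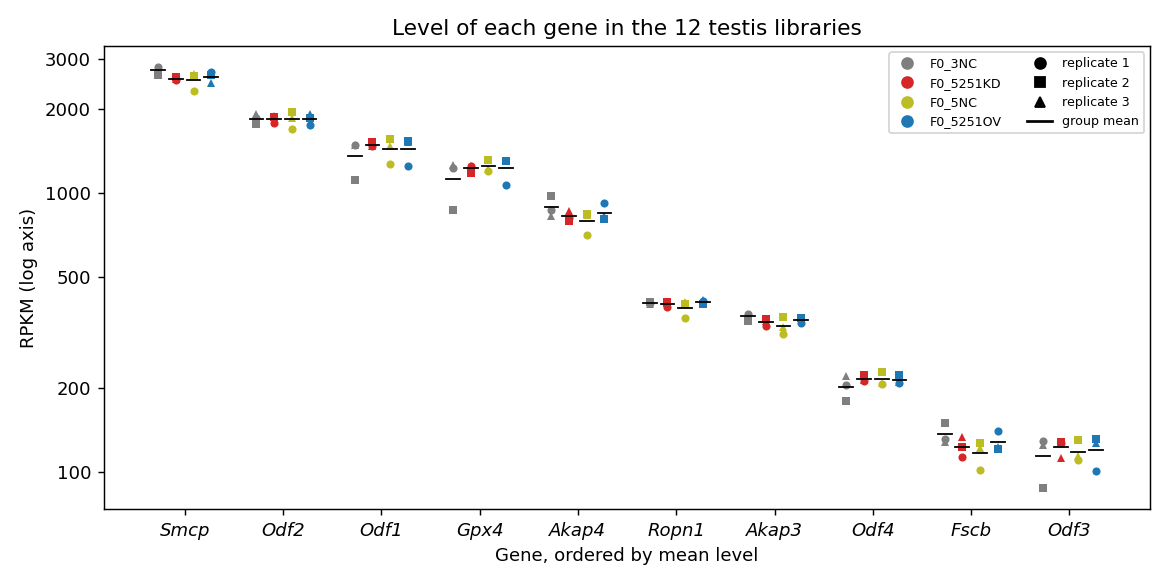
Level of each of the 10 tail genes in the 12 testis libraries, in RPKM on a log axis. Colours give the group, marker shapes the replicate and bars the group mean. The genes span from about 119 RPKM (Odf3) to 2611 RPKM (Smcp) on average, and for most genes the 4 groups overlap.

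The totals were 15431383 to 16355720 estimated counts per library, so depth differed by at most 1.06-fold. The deposited counts of the 10 genes were whole numbers in every library. Odf2 is the only one of them with an exon overlapped by an exon of another annotated gene, the small RNA gene Gm23865 on the opposite strand. The summed level of 12 spermatid marker genes was 15716 to 20971 CPM (counts scaled to the library total), and no marker of spermatids, spermatocytes, spermatogonia, Sertoli cells, Leydig cells, smooth muscle or macrophages was at 0 in all libraries.

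A total of 3 libraries stood apart from the rest in the tail genes, and values without them are given beside the results that rest on them. In F0_5NC replicate 1 all 10 genes were below their own mean over the 12 libraries. The median of these deviations was -0.27 on the log2 CPM scale, from -0.41 for Fscb to -0.10 for Gpx4, and 6 of the 10 had their lowest value there. In the same library the 12 Sertoli cell genes had a median deviation of 0.45, 11 of them had their highest value there, and their summed level was 1896 CPM against 1064 to 1362 CPM in the other 11 libraries. The 7 macrophage genes had a median deviation of 0.45 there, and the 12 spermatid genes one of -0.24, with 7 of the 12 at their lowest. The part of cell composition in the low tail genes of this library was not tested, and in bulk testis RNA fewer spermatids cannot be told apart from less RNA per spermatid.

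F0_3NC replicate 2 split the tail genes. Gpx4 (-0.49), Odf3 (-0.46), Odf1 (-0.38) and Odf4 (-0.24) had their lowest value of all libraries there, whereas Fscb (0.24) and Akap4 (0.20) had their highest. The mean deviation of the 4 outer dense fibre genes lay 0.39 below that of the 4 fibrous sheath genes. F0_5251OV replicate 1 showed a similar split with smaller values, from -0.24 for Odf3 to 0.16 for Fscb, and there the fibre genes lay 0.20 below the sheath genes. In the other 10 libraries this difference was between -0.03 and 0.12. Akap3 and Ropn1 did not share the higher values of Fscb and Akap4: they were at -0.01 and -0.02 in F0_3NC replicate 2, and at -0.03 and 0.00 in F0_5251OV replicate 1. Of the fibre genes, Odf2 was at -0.075 in F0_3NC replicate 2 and -0.072 in F0_5251OV replicate 1, and Odf4 at -0.024 in the latter. Cell markers moved in the same libraries. The 12 spermatocyte genes had a median deviation of 0.19 in F0_3NC replicate 2, with 6 of them at their highest, and 0.20 in F0_5251OV replicate 1, against -0.15 to 0.01 in the other 10 libraries. The spermatid genes were at -0.20 and -0.08 in these libraries and the Sertoli cell genes at -0.26 and -0.09. Their part in the split was not tested.

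**Figure D2:**
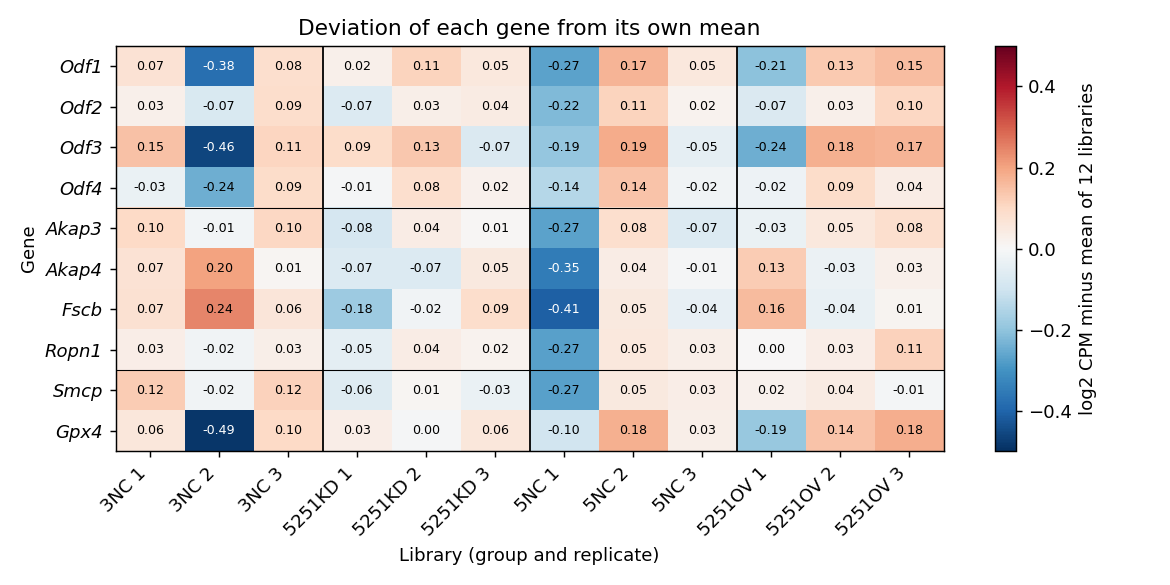
Deviation of each tail gene (rows) from its own mean over the 12 libraries (columns), in log2 CPM. Blue is below and red above the mean; horizontal lines separate fibre, sheath and capsule genes. F0_5NC replicate 1 is below the mean for all 10 genes, and F0_3NC replicate 2 ranges from -0.49 for Gpx4 to 0.24 for Fscb.

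The ratio of Odf1 to Akap4, a fibre gene to a sheath gene within a library, shows the split without any scaling between libraries. In RPKM it was 1.15 in F0_3NC replicate 2 and 1.36 in F0_5251OV replicate 1, and 1.70 to 1.92 in the other 10 libraries. The transcripts of the 10 genes differ in GC content, from 45.3% in Fscb to 56.8% in Gpx4. Over 15941 genes the deviation and GC content of a gene had a Pearson r of -0.51 in F0_3NC replicate 2 and -0.43 in F0_5251OV replicate 1, against 0.003 to 0.18 in the other 10 libraries. With the genes split into 10 classes of GC content, the lowest class had a median deviation of 0.32 in F0_3NC replicate 2 and the highest one of -0.36. Across the 10 tail genes the same r was -0.92 and -0.91 in these libraries, while in the other 10 it ran from -0.41 to 0.89, so large values of the opposite sign also occurred over these 10 genes.

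When the median of all genes in the same GC class was subtracted, the range of the 10 genes fell from 0.73 to 0.42 in F0_3NC replicate 2 and from 0.40 to 0.22 in F0_5251OV replicate 1. Odf1 was still at -0.34 after this step in F0_3NC replicate 2. In F0_5NC replicate 1 all 10 genes stayed below, from -0.36 to -0.15. What made these 2 libraries follow GC content was not tested.

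**Figure D3:**
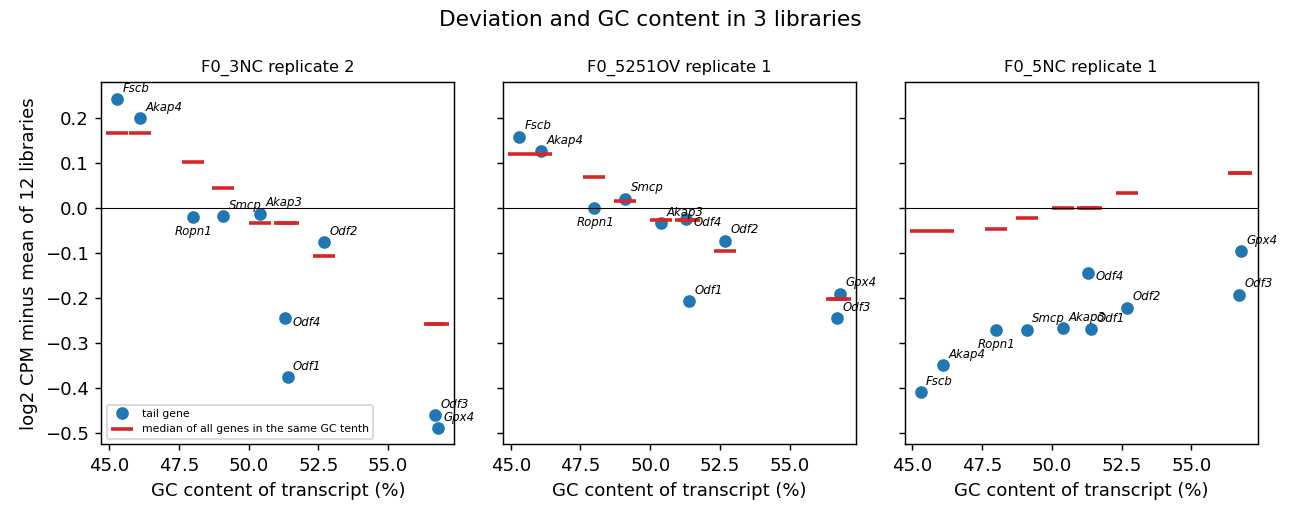
Deviation of each tail gene from its mean (log2 CPM) against the GC content of its transcript (%), in the 3 libraries that stood apart. Red bars give the median of all genes in the same of 10 GC classes. In F0_3NC replicate 2 and F0_5251OV replicate 1 both fall with GC content, and in F0_5NC replicate 1 all 10 genes lie below the bars.

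The first comparison asked whether knockdown of lncRNA5251 moved the tail genes, and none of them was called higher or lower. All 10 differences between F0_5251KD and F0_3NC lay between -0.16 (Fscb) and 0.12 (Odf1) on the log2 scale, with adjusted p-values of 0.90 to 0.98 in the quasi-likelihood test of edgeR. No member had an unadjusted p under 0.05, and DESeq2 also called 0 of 10. Of all genes tested 0.0245% were called in this comparison (4 of 16296), so 0 of 10 is no contrast with the background. Groups that did not overlap were found in 0 of the 10 genes and in 11.8% of all genes. The median difference was -0.01 over the 10 genes and 0.00 over all genes tested.

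The 4 outer dense fibre genes had a median difference of 0.09, with 3 of the 4 higher in F0_5251KD. Odf1 was at 1481, 1116 and 1481 RPKM in F0_3NC replicates 1, 2 and 3, 1469, 1521 and 1475 in F0_5251KD, 1266, 1557 and 1468 in F0_5NC, and 1249, 1532 and 1516 in F0_5251OV. Replicate 2 of F0_3NC was low, and the groups overlapped. The difference from F0_3NC was 0.12 ± 0.14 (SE, adjusted p = 0.91, edgeR), with a 95% interval of -0.18 to 0.42, that is, 0.88-fold to 1.34-fold. Without F0_3NC replicate 2 it was -0.02, the lowest value over the libraries left out in turn.

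Odf3 was at 129.6, 87.9 and 125 RPKM in F0_3NC replicates 1, 2 and 3, 128, 128 and 113 in F0_5251KD, 111, 131 and 114 in F0_5NC, and 102, 132 and 127 in F0_5251OV. Here too F0_3NC replicate 2 was the lowest of the 12 libraries, and the difference of 0.10 in F0_5251KD became -0.07 without it. Odf2 ranged from 1760 to 1919 RPKM in F0_3NC and from 1780 to 1884 in F0_5251KD, with a difference of -0.01 and an interval of -0.21 to 0.19. Odf4 ranged from 179.96 to 221 RPKM in F0_3NC and from 213 to 223 in F0_5251KD, a difference of 0.09 that became 0.004 without F0_3NC replicate 2.

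The 4 fibrous sheath genes had a median difference of -0.10, with 0 of 4 higher in F0_5251KD. Fscb was at 132, 151 and 129 RPKM in F0_3NC replicates 1, 2 and 3, 113, 124 and 134 in F0_5251KD, 102, 128 and 123 in F0_5NC, and 141, 122 and 123 in F0_5251OV. The 3 knockdown libraries overlapped the 3 controls. The difference was -0.16 ± 0.11 (SE, adjusted p = 0.90, edgeR) with an interval of -0.41 to 0.08. Akap4 was at 871, 971 and 826 RPKM in F0_3NC replicates 1, 2 and 3, 813, 793 and 863 in F0_5251KD, 707, 841 and 834 in F0_5NC, and 917, 809 and 823 in F0_5251OV. It differed by -0.12 in F0_5251KD, and its highest library was again F0_3NC replicate 2. Akap3 (-0.08) and Ropn1 (-0.01) differed by less. Without F0_3NC replicate 2 the values were -0.10 for Fscb, -0.07 for Akap4, -0.11 for Akap3 and -0.03 for Ropn1.

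Of the 2 capsule genes, Smcp was at 2817, 2634 and 2781 RPKM in F0_3NC replicates 1, 2 and 3, 2533, 2599.9 and 2551 in F0_5251KD, 2319.8, 2622 and 2659.9 in F0_5NC, and 2697, 2638 and 2478 in F0_5251OV. In RPKM the 3 F0_5251KD libraries lay below the 3 F0_3NC libraries, while in the scaled CPM of the test they overlapped (1890 to 1992 against 1952 to 2155 CPM). The difference was -0.10 with an interval of -0.29 to 0.08, and -0.15 without F0_3NC replicate 2. Gpx4 was at 1229.7, 870.1 and 1261 RPKM in F0_3NC replicates 1, 2 and 3, 1242, 1179 and 1244 in F0_5251KD, 1201, 1314 and 1215 in F0_5NC, and 1067, 1299 and 1299 in F0_5251OV. It differed by 0.12, and by -0.05 without F0_3NC replicate 2. With that library left out, 1 of the 10 tail genes was higher in F0_5251KD (4 of 10 with it), and the fibre genes had a median of -0.04. With the counts corrected for GC content in 20 bins the fibre median was 0.05 and the sheath median -0.06, and 5 of 10 were higher. No member was called in either setting. The GC correction was chosen after seeing the data.

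In overexpression all 10 tail genes had a higher mean in F0_5251OV than in F0_5NC, but by small amounts, and none was called. The differences ran from 0.01 (Gpx4) to 0.17 (Fscb) on the log2 scale, with adjusted p-values of 0.66 to 0.98 (edgeR) and no unadjusted p under 0.05. DESeq2 called 0 of the 10. Of all genes tested 0% were called by edgeR (0 of 16296, with 1429 at an unadjusted p under 0.05 and 29 called by DESeq2). The median was 0.06 over the 10 genes and 0.00 over all genes tested, of which 49.5% were higher.

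The sheath genes had the larger values in this comparison. Fscb differed by 0.17 with an interval of -0.08 to 0.41, Akap4 by 0.14, Akap3 by 0.11 and Ropn1 by 0.11. Ropn1 was at 402 to 412 RPKM in F0_5251OV and 355 to 406 in F0_5NC. The fibre genes differed by 0.04 to 0.06 and Smcp by 0.07. The larger values of the sheath genes rested on F0_5251OV replicate 1. Without that library the fibre genes were at 0.146 (Odf1), 0.089 (Odf2), 0.183 (Odf3) and 0.065 (Odf4). The sheath genes were then at 0.144 (Akap3), 0.092 (Akap4), 0.109 (Fscb) and 0.13 (Ropn1). No member had groups that did not overlap, against 13.9% of all genes tested.

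This shared direction rested on F0_5NC replicate 1, the library in which all 10 genes were low. Without it 4 of the 10 genes were higher in F0_5251OV, all of them fibrous sheath genes, and the median was -0.03. Without it the fibre median was -0.04 and the sheath median 0.02. Leaving out F0_5251OV replicate 1 instead kept the direction, with values from 0.065 (Odf4) to 0.183 (Odf3) over the 10 genes. The limma fit on log2(RPKM + 1) gave 8 of 10 higher, with Gpx4 at -0.03 and Odf4 at -0.01. The 10 genes were measured in the same libraries, and most of their pairs varied together. So 10 genes in 1 direction are not 10 independent observations.

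The Sertoli cell genes had values of the other sign in this comparison: 0 of 12 were higher in F0_5251OV, with a median of -0.29, and their summed level was 1104 to 1262 CPM in F0_5251OV and 1294 to 1896 CPM in F0_5NC. The 7 macrophage genes had a median of -0.34, the 6 peritubular smooth muscle genes one of -0.42 and the 8 Leydig cell genes one of -0.22. Without F0_5NC replicate 1 the medians were -0.10 for Sertoli cell genes, -0.10 for macrophages, -0.39 for smooth muscle and -0.21 for Leydig cells, and the summed Sertoli level of the other F0_5NC libraries was 1294 and 1326 CPM. None of these genes was called by edgeR, and DESeq2 called 1 smooth muscle gene. Their part in the values of the tail genes was not tested.

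**Figure D4:**
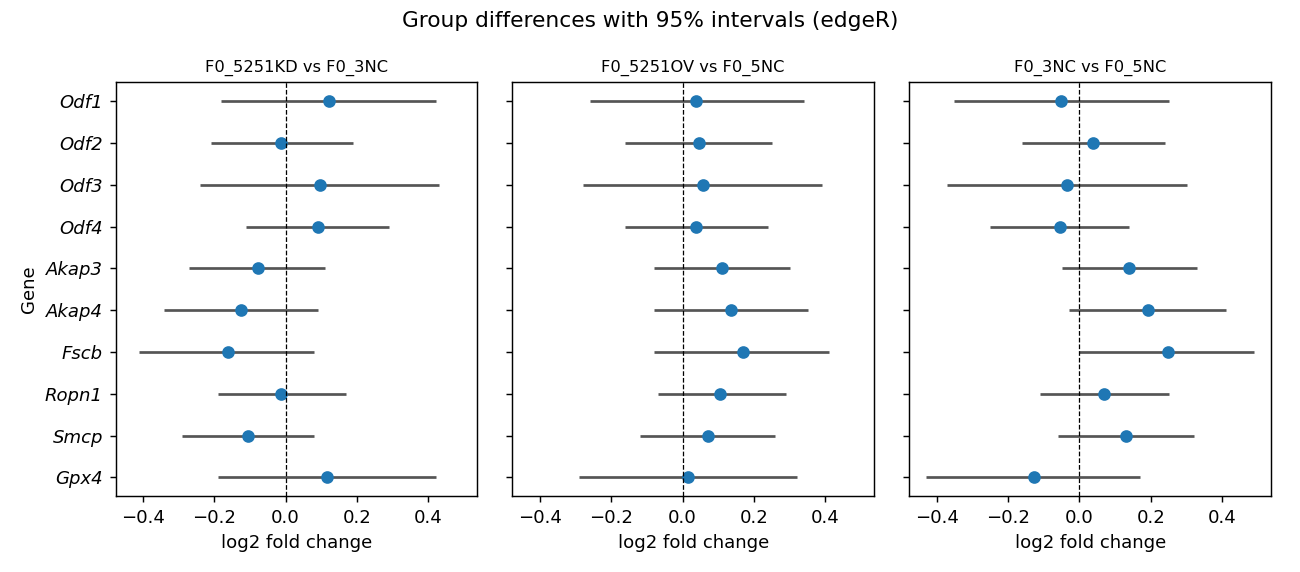
Difference of each tail gene between groups, as log2 fold change (points) with 95% intervals (bars) from edgeR, for knockdown, overexpression and the 2 control viruses. In overexpression all 10 points are above 0 and all 10 intervals include 0; in the comparison of controls the interval of Fscb begins at 0.00 and those of the other 9 genes include 0.

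The 2 control viruses were compared because knockdown and overexpression were each set against their own vector. This comparison shares F0_3NC with the knockdown comparison and F0_5NC with the overexpression comparison, so the values are not independent of theirs. The tail genes differed between F0_3NC and F0_5NC by -0.13 (Gpx4) to 0.25 (Fscb), and none was called, with adjusted p-values of 0.415 to 0.933 (edgeR). Of all genes tested 0.331% were called (54 of 16296). The 4 sheath genes were higher in F0_3NC, with a median of 0.17, whereas 1 of the 4 fibre genes was higher, with a median of -0.04. This contrast in direction rested on F0_3NC replicate 2. Without it all 4 fibre genes were higher in F0_3NC, at 0.09 (Odf1), 0.08 (Odf2), 0.14 (Odf3) and 0.03 (Odf4). The sheath genes were then at 0.18 (Akap3), 0.14 (Akap4), 0.19 (Fscb) and 0.09 (Ropn1). Fscb stood at 137 ± 11.8 RPKM in F0_3NC and 118 ± 13.4 in F0_5NC (SD, n = 3 each). Its difference was 0.25 ± 0.11 (SE, adjusted p = 0.415, edgeR). It was the only tail gene with an unadjusted p under 0.05 (0.046) and the only one whose groups did not overlap, against 17% of all genes tested. Without F0_5NC replicate 1 the difference of Fscb was 0.12 and the median of the 10 genes -0.04.

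The knockdown and overexpression effects were also tested against each other. The difference, knockdown effect minus overexpression effect, ran from -0.33 (Fscb) to 0.10 (Gpx4) over the 10 genes, and none was called (adjusted p-values of 0.45 to 0.95, edgeR, and 0 by DESeq2). Of all genes tested 0% were called (0 of 16296, with 1842 at an unadjusted p under 0.05 and 34 called by DESeq2). The sheath genes had a median of -0.22, with 0 of 4 above 0, and the fibre genes one of 0.05. Without F0_5NC replicate 1 the median of the 10 genes went from -0.09 to 0.02. Without F0_3NC replicate 2 and F0_5251OV replicate 1 it was -0.14, with 0 of 10 above 0.

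The biological coefficient of variation of the 10 genes had a median of 0.088 (0.078 to 0.137), close to that of 2596 genes at or above the level of the lowest of them (0.085) and below that of all genes tested (0.12). The 95% intervals differed between the genes. In knockdown those of Ropn1 (-0.19 to 0.17) and Odf2 (-0.21 to 0.19) were among the narrower, and over the 10 genes the bounds reached -0.41 (Fscb) and 0.43 (Odf3). In overexpression they reached -0.29 and 0.41.

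Differences in the other genes of the same structures were small too. Of 21 further outer dense fibre and fibrous sheath genes 20 were tested, and 0 were called in any comparison. In F0_5251KD 10 of the 20 were higher than in F0_3NC, with a median of 0.00, from -0.20 for Fsip2, a large sheath protein, to 0.27 for Odf3b. These became -0.06 and 0.05 without F0_3NC replicate 2, and the median -0.05. In F0_5251OV 17 of the 20 were higher than in F0_5NC, with a median of 0.09, from -0.07 for Odf3b to 0.23 for Odf2l. The median was 0.01 without F0_5NC replicate 1, and without F0_5251OV replicate 1 Odf2l was at 0.10. Between the controls 13 of 20 were higher in F0_3NC, from -0.10 for Tekt4, a tektin, to 0.26 for Aldoart1, a sperm aldolase, which was at 0.15 without F0_5NC replicate 1. In F0_5NC replicate 1 all 20 were below their mean, with a median of -0.22, as the 10 tail genes were.

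Of the 11 mitochondrial sheath and midpiece genes, 0 were called. In F0_5251KD 4 of 11 were higher (median -0.03), from -0.16 for Cyct, the testis form of cytochrome c, to 0.18 for Cox6b2, a testis subunit of cytochrome oxidase. Leaving out F0_3NC replicate 2 gave -0.09 and -0.01. In F0_5251OV 10 of 11 were higher (median 0.14), from -0.05 for Cox6b2 to 0.23 for Gk2, a glycerol kinase of the sheath. Of the 11 genes 3 had an unadjusted p under 0.05, and without F0_5NC replicate 1 the median was 0.05. Between the controls 9 of 11 were higher in F0_3NC, from -0.29 for Cox6b2 to 0.18 for Spata19, which was at 0.07 without F0_5NC replicate 1. Cox6b2 was at -0.10 without F0_3NC replicate 2. In F0_5NC replicate 1 their median deviation was -0.27, and 7 of the 11 had their lowest value there.

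Gpx4 needs selenium, and 9 genes of selenium supply and selenoprotein synthesis were followed beside it. Their medians were -0.04 in knockdown, 0.10 in overexpression and 0.09 between the controls, and 0 of 9 were called. The lowest and highest were Sephs2, which makes selenophosphate (-0.10), and Eefsec, the elongation factor for selenocysteine (0.16, and 0.06 without F0_3NC replicate 2), in knockdown. They were Lrp8, a receptor for selenoprotein P (-0.13), and Sepsecs, which makes selenocysteine on its tRNA (0.18), in overexpression. Between the controls they were Eefsec (-0.11) and Pstk (0.17), which were at -0.01 and 0.08 without F0_3NC replicate 2.

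The anchors Akap3 and Akap4 hold protein kinase A, whose subunits and upstream cyclase formed a list of 7 genes. Their medians were -0.01, 0.05 and 0.03 in the same order, and 0 of 7 were called. Adcy10, the soluble adenylyl cyclase of sperm, was lowest in knockdown (-0.16) and highest in overexpression (0.13) and between the controls (0.18), and Prkar1b, a regulatory subunit, was at the other end in each (0.18, -0.18 and -0.08). Adcy10 without F0_5NC replicate 1 was at 0.02 in overexpression and 0.07 between the controls. The 8 regulators of spermatid transcription had medians of 0.00, 0.07 and 0.05. They ran from Fhl5, a coactivator of CREM (-0.15), to Rfx2 (0.20, and 0.06 without F0_3NC replicate 2) in knockdown, and from Ybx2, which binds stored mRNAs (-0.09 and -0.15), to Fhl5 (0.17 and 0.26) in the other comparisons, again with 0 of 8 called. Fhl5 without F0_5NC replicate 1 was at 0.09 in overexpression.

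**Figure D5:**
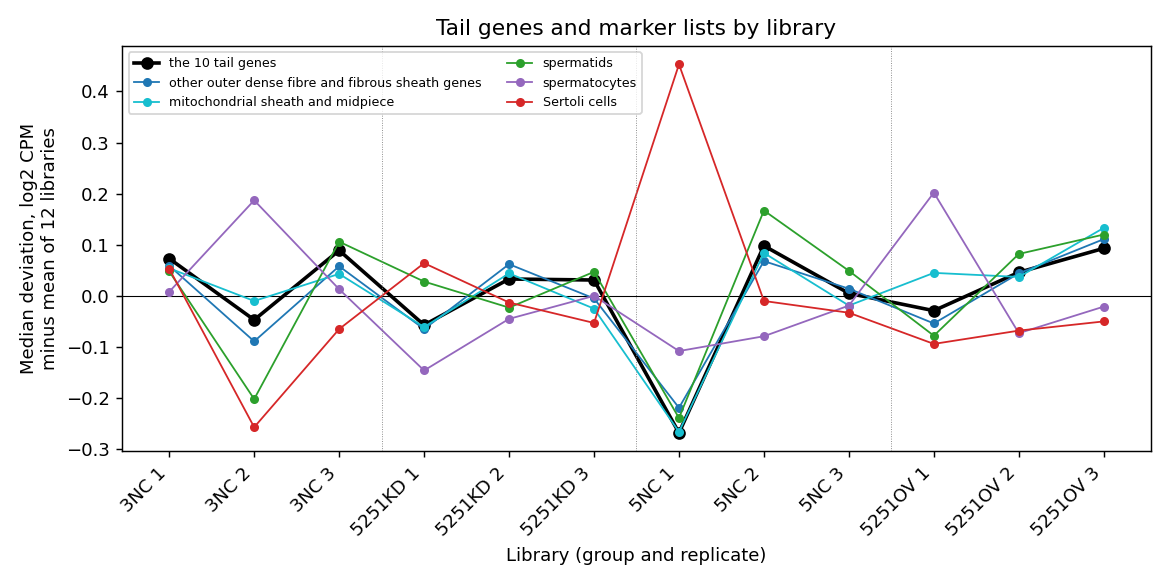
Median deviation from the mean of 12 libraries (log2 CPM) in each library, for the 10 tail genes (black) and 5 other lists. The tail genes follow the other fibre and sheath genes, the midpiece genes and the spermatid genes, most of all in F0_5NC replicate 1, where Sertoli cell genes are at 0.45.

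No germ cell marker was called either. The 12 spermatid genes had medians of 0.03, 0.05 and -0.04 in knockdown, overexpression and the controls, the 12 spermatocyte genes -0.14, 0.10 and 0.19, and the 10 spermatogonia genes -0.02, -0.07 and -0.04, with 0 called in each. In knockdown the somatic lists had medians of 0.10 (Sertoli), 0.23 (Leydig), 0.08 (smooth muscle) and 0.13 (macrophages), and between the controls of -0.23, -0.08, -0.10 and -0.28, again with 0 called. Without F0_3NC replicate 2 the spermatocyte median in knockdown was -0.08, the spermatid median -0.05 and the Sertoli median 0.02. The Leydig median was then 0.325, the macrophage median 0.283 and the smooth muscle median 0.033. Without F0_5NC replicate 1 the medians between the controls were 0.11 for spermatocytes, -0.05 for Sertoli cells and -0.04 for macrophages. They were then -0.139 for spermatids, -0.009 for Leydig cells and -0.113 for smooth muscle. Epididymis genes, 3 of which passed the filter, summed to 5.09 to 10.6 CPM in F0_3NC, 2.03 to 4.6 in F0_5251KD, 15.6 to 111 in F0_5NC and 3.75 to 80.5 in F0_5251OV. Of 12 immediate early genes, which respond to stimulation and handling within minutes, 4 were called in F0_5251KD against F0_3NC, all higher (median 0.95). In that comparison 11 of the 12 were higher and Myc was at -0.92. All 12 had an unadjusted p under 0.05, and DESeq2 called 7. In overexpression 0 were called (median -0.18), with 2 at an unadjusted p under 0.05 and 0 called by DESeq2. Between the controls 7 were called, all higher in F0_3NC than in F0_5NC (median 1.55). There 10 had an unadjusted p under 0.05, and DESeq2 called 9. The 4 in knockdown, named after their values were seen, were Fos, Btg2, Egr1 and Zfp36, the only 4 genes called in that comparison. No list gene was called (0 of 12) when either replicate 1 or replicate 3 of F0_3NC, or replicate 3 of F0_5251KD, was left out, 1 list gene was called without F0_5251KD replicate 1, and over all alternatives the list had 0 to 7 calls. None of the 10 tail genes was called in these comparisons.

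The 10 genes varied together in most pairs, and the extent depended on the libraries included. Over their 45 pairs the correlation of log2 CPM across the 12 libraries had a median of 0.65, from -0.28 to 0.97, with 7 pairs below 0. Without F0_3NC replicate 2 and F0_5251OV replicate 1 the median was 0.84 and 0 pairs were below 0. Without F0_5NC replicate 1 the median was 0.45, and 11 pairs were below 0, the lowest at -0.77. These values describe libraries that share their normalisation, and no test was made of them. The mean profile of the 10 genes, which includes each gene itself, was followed most closely by Odf2 (r = 0.97) and least by Akap4 (0.52) and Fscb (0.54). Of 9696 other genes at a mean of at least 10 CPM, those with the profile most like it over the 12 libraries included Nt5c1b (r = 0.98), Spata18 (0.97), Pmfbp1 (0.97) and Otub2 (0.96).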

How the data were processed

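Testis mRNA of 12 libraries was analysed in 4 groups of 3. Per the methods, mRNA was selected with oligo(dT), copied with random hexamers, sequenced on an Illumina instrument and aligned with SOAPaligner, with no step that marks the strand. The labels give the build as mm10. The authors deposited an estimated count and an RPKM value per gene and library. The RPKM unit comes from the methods, since the file header names none. Of the deposited estimated counts 12.0% were not whole (tolerance 1e-06), and all were rounded. Another 18 columns that belong to no listed sample, and the group means of the authors, were left out. Library totals were 15431383 to 16355720.

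Counts were fitted in edgeR 4.0.16 (R 4.3.3) with TMM factors and filterByExpr, using 4 group means over 12 libraries (8 residual degrees of freedom). The quasi-likelihood F test was two-sided, adjusted by Benjamini-Hochberg over 16296 genes, with a threshold of 0.05. A standard error is |log2 fold change| / sqrt(F), and the intervals are at 95%. The fit was first tested on simulated counts. DEGseq with a random sampling model, named by the study, ignores the spread between libraries and was not used. The other settings tried were DESeq2 1.42.0, upper-quartile factors, an unfiltered table, at least 1 CPM in 3 samples, limma 3.58.1 on log2(RPKM + 1) and log2(RPKM + 0.1), the compared groups alone, a replicate block and each library left out. A count correction in 20 GC bins, and leaving out both libraries that follow GC content, were added after seeing the data.

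The 10 members and 14 gene lists were chosen with earlier results of these data known. Named genes were all members, the lowest and highest gene of each list in each comparison, and the 5 genes most like the members' mean profile, of which 1 is not reported here. Extremes are given for the 5 tail-related lists in 3 comparisons only. The other 9 lists, and the difference of effects, are given by counts, medians or summed levels. RefSeq GRCm38.p6 matched 20564 genes by gene ID, and GC content was known for 15941 (97.8%) of the genes tested.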

Additional observations from a re-analysis of the deposited data

How the results depend on the processing

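None of the 10 tail genes was called in any comparison under any alternative run (730 of 730 values, smallest adjusted p 0.30). Their medians ran from -0.06 to 0.02 in knockdown and from -0.03 to 0.15 in overexpression. They ran from -0.04 to 0.12 between the controls and from -0.15 to 0.02 for the difference of effects. Each range held both signs. The moves were below the SD between libraries of a group (0.11), which itself includes the libraries that stood apart. The replicate numbers did not pair the libraries (correlation of same-numbered deviations -0.19 to 0.092), and with the number as a replicate block 0 members were called and the medians were -0.01, 0.07, 0.06 and -0.09 in knockdown, overexpression, controls and the difference of effects; the smallest adjusted p was 0.47. Genes called over the whole table numbered 4, 0, 54 and 0 in the same order, 20, 29, 131 and 34 with DESeq2, 2, 0, 50 and 0 with the block, 2, 0, 42 and 0 and 0, 1, 40 and 0 with limma at the pseudocounts 1 and 0.1, 5, 3, 47 and 0 without a filter, and 0, 0, 26 and 0 without both libraries that follow GC content. With only the compared groups they were 5, 3 and 47, and with 1 library left out at a time 0 to 4, 0 to 1, 30 to 54 and 0 to 1.

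Directions of single genes did change, and the cause was not tested. Without both libraries that follow GC content, knockdown values became -0.004 for Odf1, -0.062 for Odf3, -0.037 for Gpx4 and -0.0008 for Cox6b2. Overexpression values became 0.099 for Cox6b2, 0.064 for Odf3b and 0.035 for Ybx2. Values between the controls became 0.07 for Odf1, 0.122 for Odf3, 0.017 for Odf4, 0.023 for Gpx4, 0.009 for Tekt4 and 0.007 for Ybx2, and the difference of effects became -0.138 for Odf1, -0.233 for Odf3, -0.037 for Odf4 and -0.147 for Gpx4. The GC-bin correction gave 0.03 for Ropn1 in knockdown, 0.066 for Odf3b in overexpression, 0.074 for Odf3, 0.016 for Eefsec and 0.022 for Tekt4 between the controls, and -0.115 for Odf3 and -0.054 for Gpx4 in the difference. In overexpression both limma fits gave -0.006 for Odf4 and -0.03 for Gpx4, and upper-quartile scaling gave -0.006 for Gpx4.

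With 1 library left out at a time, 28 values changed direction in at least 1 setting. In knockdown the ranges were -0.015 to 0.197 for Odf1, -0.056 to 0.025 for Odf2, -0.073 to 0.199 for Odf3, -0.032 to 0.011 for Ropn1, -0.049 to 0.221 for Gpx4 and -0.012 to 0.295 for Cox6b2. In overexpression they were -0.079 to 0.146 for Odf1, -0.046 to 0.117 for Odf2, -0.03 to 0.183 for Odf3, -0.032 to 0.114 for Odf4, -0.026 to 0.127 for Smcp, -0.054 to 0.123 for Gpx4, -0.152 to 0.113 for Cox6b2, -0.179 to 0.163 for Odf3b and -0.173 to 0.048 for Ybx2. Between the controls they were -0.174 to 0.086 for Odf1, -0.055 to 0.111 for Odf2, -0.134 to 0.139 for Odf3, -0.135 to 0.034 for Odf4, -0.03 to 0.127 for Ropn1, -0.232 to 0.04 for Gpx4, -0.216 to 0.026 for Tekt4 and -0.308 to 0.025 for Ybx2. For the difference of effects they were -0.061 to 0.21 for Odf1, -0.13 to 0.043 for Odf2, -0.136 to 0.137 for Odf3, -0.039 to 0.134 for Odf4 and -0.07 to 0.206 for Gpx4.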
